A study of Mus musculus with 40 samples.

Results

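Glycolysis and the hypoxia response were followed in mouse cardiac fibroblasts through 33 named genes of glucose uptake, glycolysis, lactate handling and oxygen sensing, out of 55414 gene identifiers in the count table and 25210 with enough counts to be tested. The genes are listed by name for what they encode, with earlier results of these data known when the list was made, and all 33 passed the count minimum of 10 reads summed over all libraries. They comprise 2 glucose carriers, 11 genes of upper glycolysis, 6 of lower glycolysis, 5 of lactate and pyruvate handling, 4 hypoxia-inducible factor (HIF) subunits and prolyl hydroxylases, and 5 other hypoxia targets.

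Fibroblasts came from the hearts of C57BL/6J TAK1 fl/fl mice, in which LoxP sites flank exon 2 of Map3k7, the gene for the kinase TAK1, and all 10 groups carry this allele. Cells at passage 1, grown until then in medium with serum and bFGF, received an adenovirus that expresses LacZ (TAK1 kept) or iCre (Cre recombinase, to delete the exon) from the CMV promoter. They were then serum-starved and left without ligand (Con) or given bFGF at 20 ng/ml, TGFb at 10 ng/ml, IL-1b at 15 ng/ml or TNFa at 10 ng/ml for 24 h, with 4 replicates in each group of virus and ligand and 40 libraries in all. The study describes the replicates as biological replicates from male mice, and the sources used here do not say whether each is a separate heart or a separate dish, so the p-values measure the spread between these libraries, and in bulk RNA a gene's level per cell cannot be told apart from the share of cells that express it. Levels are in CPM (reads scaled to a common library size after TMM normalization), given as mean ± SD of the 4 libraries of a group, and a gene was called changed at an adjusted p of at most 0.05 over all genes tested.

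Glycolysis splits glucose into pyruvate in the cytosol, and lactate dehydrogenase turns pyruvate into lactate, which leaves the cell through monocarboxylate carriers. HIF-1 and HIF-2 are pairs of an oxygen-regulated alpha subunit, encoded by Hif1a and Epas1, with a constitutive partner. In oxygen the alpha subunits are hydroxylated by prolyl hydroxylases (Egln genes) and destroyed, so the transcript level of Hif1a or Epas1 is only one of the steps that set the amount of the protein. Most glycolytic enzymes, the carriers Slc2a1 and Slc16a3, and the hydroxylase Egln3 itself are known HIF target genes, and growth factors and cytokines can raise the same genes in the presence of oxygen.

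HIF binds DNA at a short core, ACGTG or GCGTG, so the 250 bases before the transcription start of each member were searched for these letters on both strands (RefSeq starts, build GRCm38.p6). Of 33 members, 30 had a promoter entry, and 27 of these 30 (90%) held at least 1 match in any of their windows. The share was 41.5% of all 27025 genes with an entry and 64.3% of the 7534 genes whose mean over these libraries reached 10 CPM. By window, it was 81.4% of 43 for the members and 38.6% of 32851 for all genes. The members were chosen as glycolysis and hypoxia response genes, of which many are known HIF targets. That choice favoured a high share. The cores also occur inside other motifs, the palindrome CACGTG (an E-box) among them, which counts as a match on each strand, and the search says nothing of occupancy. Gpi1, Tpi1 and Eno2 had no match in their window, although Gpi1 rose with 4 ligands in LacZ and Tpi1 with 3. Whether matches go with a rise was not tested. The windows of 6 members whose levels are described below are shown with matches in capitals. All 6 rose with more than 1 ligand in LacZ. Slc16a1 and Bnip3 are shown also because their rise with IL-1b differed between LacZ and iCre. Ldha has 2 windows, of which the one with 5 matches is shown and the other holds 1.

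The 6 windows, each 5′ to 3′ on the strand of the gene, were as follows.
Hk2, chr6:82774455-82774704, reverse strand: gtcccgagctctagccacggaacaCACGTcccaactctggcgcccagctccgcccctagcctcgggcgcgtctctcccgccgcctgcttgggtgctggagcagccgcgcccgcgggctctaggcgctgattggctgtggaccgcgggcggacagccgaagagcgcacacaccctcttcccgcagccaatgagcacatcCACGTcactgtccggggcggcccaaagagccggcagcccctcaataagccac
Ldha, chr7:46845554-46845803, forward strand: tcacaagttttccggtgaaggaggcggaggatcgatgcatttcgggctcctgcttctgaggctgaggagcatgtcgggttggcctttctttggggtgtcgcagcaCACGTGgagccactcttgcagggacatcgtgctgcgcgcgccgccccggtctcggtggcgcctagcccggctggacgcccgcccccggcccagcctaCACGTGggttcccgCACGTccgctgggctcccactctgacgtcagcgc
Pgk1, chrX:106186850-106187099, forward strand: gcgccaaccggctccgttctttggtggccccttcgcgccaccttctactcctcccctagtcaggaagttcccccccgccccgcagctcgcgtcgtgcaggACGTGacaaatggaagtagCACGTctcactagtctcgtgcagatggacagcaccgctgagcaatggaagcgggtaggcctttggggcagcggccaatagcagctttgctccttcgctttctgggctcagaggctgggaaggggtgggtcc
Slc16a3, chr11:120948817-120949066, forward strand: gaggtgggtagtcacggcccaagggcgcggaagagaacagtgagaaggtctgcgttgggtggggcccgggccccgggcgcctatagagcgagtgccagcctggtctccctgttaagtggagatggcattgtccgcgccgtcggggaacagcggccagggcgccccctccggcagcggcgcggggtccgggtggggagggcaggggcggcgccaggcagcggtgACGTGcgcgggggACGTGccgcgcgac
Slc16a1, chr3:104638414-104638663, forward strand: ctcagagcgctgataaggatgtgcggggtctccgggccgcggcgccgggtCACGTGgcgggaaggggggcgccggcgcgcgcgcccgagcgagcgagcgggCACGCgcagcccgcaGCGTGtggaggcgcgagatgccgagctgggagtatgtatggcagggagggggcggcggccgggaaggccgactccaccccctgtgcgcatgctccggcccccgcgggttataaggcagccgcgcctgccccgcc
Bnip3, chr7:138909507-138909756, reverse strand: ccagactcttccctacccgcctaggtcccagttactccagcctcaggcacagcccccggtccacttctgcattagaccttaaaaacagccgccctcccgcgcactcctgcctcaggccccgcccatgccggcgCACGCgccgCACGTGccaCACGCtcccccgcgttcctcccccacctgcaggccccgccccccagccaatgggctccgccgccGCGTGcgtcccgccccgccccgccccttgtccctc

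Library totals lay between 25360947 and 66160732 counts, with a median of 36183962. Map3k7 reached 153 ± 6.51 CPM in LacZ Con and 127 ± 4.27 CPM in iCre Con, a log2 difference of -0.28 (adjusted p = 0.137), which passed with the replicate block (adjusted p = 0.00393) and by DESeq2 (adjusted p = 0.0074). In the ligand groups the iCre and LacZ libraries differed in log2 by -0.40 (adjusted p = 0.351) with bFGF (with the block adjusted p = 0.000409), -0.67 (adjusted p = 0.00088) with TGFb, -0.82 (adjusted p = 0.000274) with IL-1b and -0.71 (adjusted p = 0.000829) with TNFa. Counts per gene do not isolate the deleted exon, so they show a lower transcript level and not the share of recombined cells. The fibroblast collagens Col1a1, Col1a2 and Col3a1 stood at or above 1544 CPM in every library and 5 of the other 6 fibroblast markers at or above 170.6 CPM (the exception, Tcf21, ran from 3.14 to 103 CPM), while the cardiomyocyte markers Myh6 and Actc1 stayed at or below 0.0887 CPM and the leukocyte marker Ptprc at or below 2.08 CPM. Other markers of these types were present, with Tnnt2 (cardiomyocyte) at 0.271 to 110.3 CPM, Lyz2 and Csf1r (leukocyte) at up to 129.8 and 13.9 CPM, and Rgs5 (mural cells) at 60.4 to 1366 CPM, and the 3 endothelial markers summed to at most 13.4 CPM. The summed cardiomyocyte markers, nearly all Tnnt2, lay at 14.6 to 110.3 CPM in LacZ Con and in LacZ at 0.326 to 1.67 CPM with IL-1b, 0.874 to 6.65 with TNFa, 2.82 to 14.3 with TGFb and 1.01 to 29.9 with bFGF. With TGFb in LacZ the summed fibroblast markers lay at 54480 to 63560 CPM against 30020 to 46880 in Con, and the mural sum at 402 to 936 against 83.1 to 534 CPM, and the part of such cells in the results was not tested. The 12 iCre libraries with TGFb, IL-1b or TNFa had log2 levels, taken relative to the mean of each gene over all libraries, that rose with the GC content of the transcript by 0.223 to 0.344 per 10 percentage points, where the other 28 libraries had slopes of -0.25 to -0.0104. For comparisons of the members that include these 12 libraries, counts are also given with a GC correction, in a fit that also holds the replicate number as a block. In that fit the log2 difference of Map3k7 between iCre and LacZ was -0.51 with TGFb, -0.67 with IL-1b and -0.57 with TNFa.

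Levels of the 33 genes spanned a wide range. Per kilobase of transcript, the most abundant in LacZ Con were Aldoa at 340.1 CPM per kb, Gapdh at 246 and Pkm at 229, followed by Ldha at 174. The least abundant were Aldoc at 0.837, Slc2a3 at 0.876 and Ankrd37 at 1.5 CPM per kb. Of the 33 genes, 20 overlap another annotated gene and the strand setting of the counting is not given in the sources used here. Gapdh has 169 pseudogene copies, which drew counts equal to 4.41% of its own, and for every other member the copies drew at most 0.247%.

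**Figure D1:**
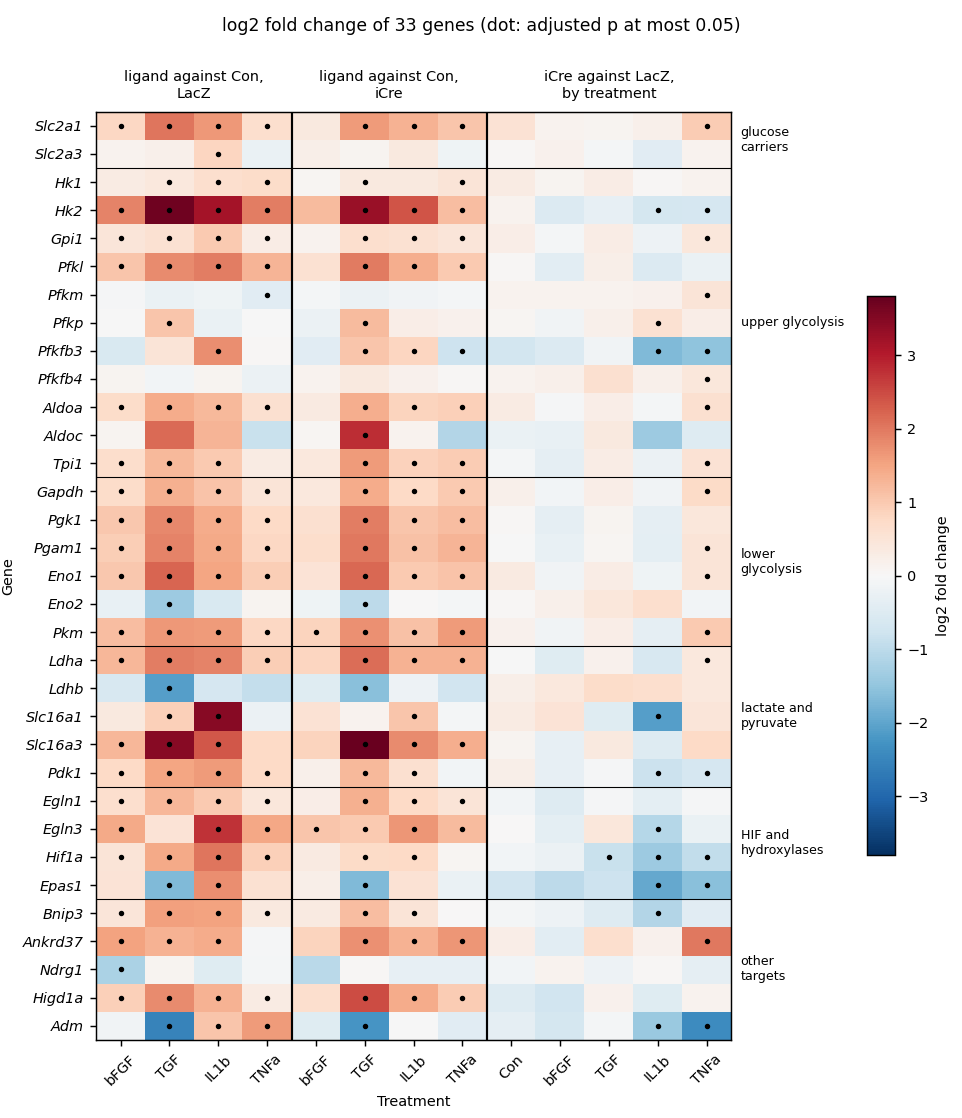
Log2 fold change of each of the 33 genes (rows, grouped by role) for each ligand against Con in LacZ and in iCre and for iCre against LacZ under each treatment (columns), with a dot where the adjusted p is at most 0.05. The LacZ columns hold 21 (bFGF), 26 (TGFb), 26 (IL-1b) and 20 (TNFa) dots, and dots between iCre and LacZ appear under TGFb (1), IL-1b (10) and TNFa (18).

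All 4 ligands raised most of the glycolytic genes in LacZ fibroblasts. With TGFb, 22 of 33 members rose and 4 fell, beside 17.5% and 19.3% of all genes tested (36.9% in either direction). With IL-1b, 26 rose and none fell, beside 11.1% and 9.55% of all genes (20.7% in either direction), where 1 member was lower at an unadjusted p under 0.05 and by DESeq2. With TNFa, 19 rose and 1 fell, beside 10.9% and 10.4% (21.3%), and with bFGF 20 rose and 1 fell, beside 7% and 4.64% (11.6%). With the replicate block the calls were 27 higher and 4 lower with IL-1b (Eno2, Ldhb, Ndrg1 and Pfkp), beside 16.3% and 17.3% (33.5% in either direction). With TGFb they were 24 and 4, beside 19.6% and 22.5% (42% in either direction). They were 22 and 3 with TNFa (Pfkm, Aldoc and Ldhb lower), beside 17.2% and 18.4% (35.5% in either direction), and 23 and 4 with bFGF (Pfkfb3, Eno2, Ldhb and Ndrg1 lower), beside 14.2% and 13.1% (27.3% in either direction). The median log2 fold change over the 33 genes was 1.32 with TGFb, 1.41 with IL-1b, 0.48 with TNFa and 0.63 with bFGF, where the median over all genes lay at -0.17, -0.10, -0.08 and -0.03. The 4 comparisons share the same 4 Con libraries, so a low Con level raises all of them together, and the ligands were not tested against each other.

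The 16 genes that rose with every ligand in LacZ were Slc2a1, Hk2, Gpi1, Pfkl, Aldoa, Gapdh, Pgk1, Pgam1, Eno1, Pkm, Ldha, Pdk1, Bnip3, Egln1, Higd1a and Hif1a, beside 1.96% of all genes tested that were called higher in all 4 comparisons, which share their Con libraries. Summed over the 17 genes from hexokinase to lactate dehydrogenase (isoforms included, Pfkfb genes left out), their transcripts made up 0.294% ± 0.0192 of normalised counts in LacZ Con. The sum was 0.524% ± 0.0333 with bFGF, 0.461% ± 0.0243 with TNFa, 0.738% ± 0.106 with IL-1b and 0.82% ± 0.197 with TGFb. In every ligand group the lowest library lay above the highest Con library. With bFGF in LacZ the count of called members fell from 21 to 6 without replicate 3 and to 10 without replicate 4, and no called member changed its direction. Here and below, fits that leave out a replicate had no block. With the block and all libraries 27 members passed.

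**Figure D2:**
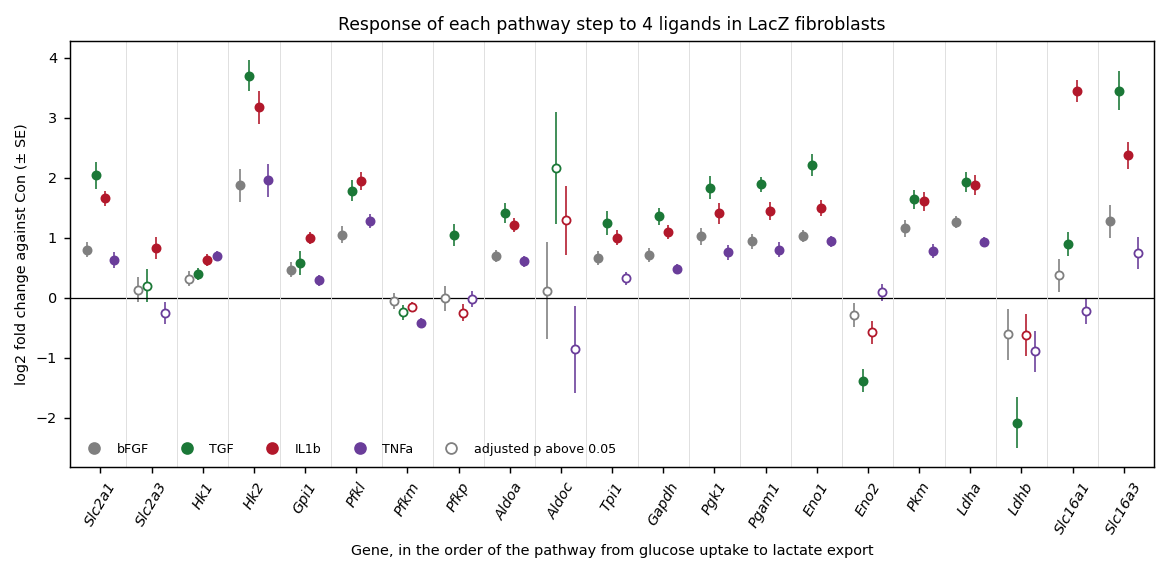
Log2 fold change against Con ± SE in LacZ fibroblasts (vertical axis) for the genes of glucose uptake, glycolysis and lactate export in pathway order (horizontal axis), for bFGF, TGFb, IL-1b and TNFa, with open points where the adjusted p is above 0.05. Hk2 and Slc16a3 with TGFb and Slc16a1 and Hk2 with IL-1b stand highest, at 3.71, 3.45, 3.46 and 3.18, while Eno2 and Ldhb lie below 0 with TGFb.

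Of the 2 glucose carriers, Slc2a1 (GLUT1, the carrier of basal uptake) was the more abundant and rose with all 4 ligands. Its level was 49.9 ± 6.47 CPM in LacZ Con, and it rose with TGFb to 203 ± 76.4, with IL-1b to 156 ± 22.4, with bFGF to 85.4 ± 10.6 and with TNFa to 77 ± 12.6 CPM. The libraries of each ligand lay above all 4 Con libraries. Slc2a3 (GLUT3, a high-affinity carrier) stayed between 1.88 and 7.53 CPM in the 40 libraries and rose with IL-1b alone among the ligands tested, from 3.47 ± 0.527 to 6.09 ± 1.03 CPM. Per length, Slc2a1 made up 94.6% ± 0.618 of the summed level of both carriers in LacZ Con and 98.4% ± 0.303 with TGFb.

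Hk2, the inducible hexokinase that traps glucose in the cell as its phosphate, had the largest changes of the upper pathway in LacZ. In LacZ Con its 4 libraries held 6.99, 17.3, 8.57 and 8.63 CPM. With TGFb they held 139, 145, 114 and 134 CPM (log2 fold change 3.71 ± 0.26 (SE), adjusted p = 4.55e-06), and with IL-1b 113, 76.8, 74.6 and 104 CPM (log2 fold change 3.18 ± 0.28 (SE), adjusted p = 5.69e-05). The second Con library stood above the other 3, and no ligand library overlapped with Con. With TNFa the libraries held 35.5, 53.8, 31.6 and 39.5 CPM (log2 fold change 1.96 ± 0.28 (SE), adjusted p = 0.000965), and with bFGF 26.2, 43.1, 39.6 and 40.4 CPM (log2 fold change 1.87 ± 0.27 (SE), adjusted p = 0.00342). Without replicate 3 the bFGF value was 1.76 with an adjusted p of 0.055.

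Hk1, the hexokinase of most resting cells, moved less. It stood at 105 ± 8.6 CPM in LacZ Con and rose with TNFa to 170.4 ± 13.2, with IL-1b to 162 ± 17.7 and with TGFb to 138 ± 13.3 CPM. With bFGF it read 129.6 ± 19.6 CPM (log2 0.32, adjusted p = 0.128, and log2 0.31, adjusted p = 0.00407, with the replicate block). Per length, the share of Hk2 in the 2 hexokinases was 7.14% ± 3.41 in LacZ Con, 18.4% ± 4.26 with bFGF, 15.5% ± 4.21 with TNFa, 30.5% ± 3.1 with IL-1b and 42.9% ± 1.68 with TGFb.

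Of the 3 phosphofructokinase genes, which encode the enzyme of the committed step, Pfkl (the liver form) rose with every ligand. It stood at 74.5 ± 10.6 CPM in Con, 152 ± 24.4 with bFGF, 180.4 ± 16.3 with TNFa, 255 ± 64.7 with TGFb and 285 ± 51.7 with IL-1b. Pfkp (the platelet form) rose with TGFb alone among the ligands, from 42.5 ± 6.66 to 87.2 ± 23.2 CPM, and with IL-1b it read 35.4 ± 4.89 CPM (log2 -0.25, adjusted p = 0.253, and log2 -0.25, adjusted p = 0.0231, with the block). Pfkm (the muscle form) fell with TNFa, from 62.3 ± 4.42 to 46.2 ± 3.52 CPM, and passed with no other ligand. Pfkl made up 38.4% ± 3.19 of the 3 forms per length in Con and 73% ± 3.9 with IL-1b.

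Pfkfb3 makes fructose 2,6-bisphosphate, the activator of phosphofructokinase, and without the block rose in LacZ with IL-1b alone among the ligands. Its libraries held 30.8, 62.7, 54.4 and 45.4 CPM in LacZ Con and 175, 148, 167 and 164 CPM with IL-1b (log2 fold change 1.77 ± 0.18 (SE), adjusted p = 0.000155). The IL-1b libraries lay close together, and each was well above the highest Con library. With bFGF the mean was 32 ± 3.73 CPM (log2 -0.57, adjusted p = 0.0834, and log2 -0.54, adjusted p = 0.000849, with the block), and with TGFb 66.5 ± 16.7 CPM (log2 0.48, adjusted p = 0.117, and log2 0.49, adjusted p = 0.00248, with the block). Pfkfb4, which encodes a related enzyme, stayed between 9.34 and 11.7 CPM over the 5 LacZ groups and passed with no ligand.

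The genes of the middle pathway rose with most ligands. Aldoa (aldolase, which splits the sugar phosphate) stood at 527 ± 25.4 CPM in Con and 1383 ± 374 with TGFb, and Tpi1 (triosephosphate isomerase) at 183 ± 22 and 429.6 ± 137 CPM. Aldoa rose with all 4 ligands, and Tpi1 with all but TNFa (228 ± 21.1 CPM, log2 0.32, adjusted p = 0.0585, and log2 0.32, adjusted p = 0.00308, with the block). Gpi1, the isomerase after hexokinase, rose from 309 ± 23.6 to 611 ± 51.5 CPM with IL-1b and passed with the other ligands at adjusted p-values of 0.0401 (bFGF), 0.0471 (TGFb) and 0.0418 (TNFa). Each of these weaker Gpi1 calls missed the threshold without replicate 1, 3 or 4, with adjusted p-values of 0.0734 to 0.2.

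Gapdh, often used as a reference gene, was not constant. It stood at 349.9 ± 26.5 CPM in Con and rose to 486 ± 24.6 with TNFa, 563 ± 66.7 with bFGF, 738 ± 86.5 with IL-1b and 889 ± 180.3 with TGFb. Pgk1, the kinase of the first step that makes ATP, rose from 91.6 ± 16.6 CPM to 323 ± 91.5 with TGFb and 240.3 ± 47.8 with IL-1b, and Pgam1 (phosphoglycerate mutase) from 34.5 ± 4.87 to 127 ± 12.4 and 93.8 ± 17.2 CPM. Eno1, the widespread enolase, rose from 215 ± 18.3 CPM to 986 ± 286 with TGFb (log2 2.21 ± 0.19) and 600.1 ± 90.2 with IL-1b (log2 1.49 ± 0.13). Pkm, the pyruvate kinase gene, rose from 557 ± 74.1 CPM to 1718 ± 293 with TGFb, 1687 ± 281 with IL-1b, 1227 ± 153 with bFGF and 958 ± 68.2 with TNFa. For these 5 genes no ligand library overlapped with Con in LacZ.

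In the fit without the block, the minor isoforms of enolase and aldolase fell or did not pass in LacZ. Eno2, the enolase known from neurons, fell with TGFb from 33.5 ± 5.32 to 12.7 ± 3.52 CPM (log2 fold change -1.39 ± 0.19 (SE), adjusted p = 0.000231) and with IL-1b missed the threshold without the block (log2 -0.58, adjusted p = 0.0507) and passed with it (log2 -0.61, adjusted p = 3.31e-06) and by DESeq2 (log2 -0.58, adjusted p = 0.0241). With bFGF it passed under the block (log2 -0.32, adjusted p = 0.0257). Its share of both enolases per length was 10.2% ± 2.08 in Con and 0.924% ± 0.0534 with TGFb. Aldoc, the brain-type aldolase, ranged from 0.203 to 39.6 CPM over the 40 libraries and in LacZ missed the threshold without the block but passed with it for TGFb (log2 1.48, adjusted p = 0.00297), IL-1b (log2 1.33, adjusted p = 1.03e-05) and TNFa (log2 -0.97, adjusted p = 0.00314). With TGFb its libraries held 1.57, 32.7, 2.46 and 4.28 CPM. The second replicate was the highest in that group.

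Among the genes of lactate handling, Ldha rose and Ldhb did not. Ldha, which turns pyruvate into lactate, stood at 317 ± 4.23 CPM in LacZ Con and rose to 1193 ± 302 with TGFb, 1158 ± 270.3 with IL-1b, 752 ± 62.8 with bFGF and 603 ± 53.9 with TNFa. Ldhb, the form that favours the reverse reaction, fell with TGFb from 30.4 ± 12.8 to 7.04 ± 3.9 CPM (log2 fold change -2.08 ± 0.42 (SE), adjusted p = 0.00288). With the other ligands Ldhb missed the threshold without the replicate block and passed with it, at log2 values of -0.75 (bFGF), -0.68 (IL-1b) and -0.93 (TNFa). The share of Ldhb in both lactate dehydrogenases per length was 11.6% ± 4.13 in Con, 3.7% ± 2.02 with TNFa, 3.59% ± 2.82 with bFGF, 2.54% ± 1.82 with IL-1b and 0.811% ± 0.415 with TGFb. Replicate 2 was the highest in Con and with bFGF, IL-1b and TNFa, and without it the shares were 9.64%, 2.2%, 1.68% and 2.73%. For TNFa, DESeq2 also called Ldhb (log2 -0.88, adjusted p = 0.0479).

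The monocarboxylate carriers Slc16a1 (MCT1) and Slc16a3 (MCT4, known for lactate export) differed in which ligands they rose with. Slc16a3 libraries held 13.4, 20.3, 21.5 and 26.7 CPM in LacZ Con and 115, 335, 182 and 256 CPM with TGFb (log2 fold change 3.45 ± 0.33 (SE), adjusted p = 2.47e-05). With IL-1b they held 95.8, 85.1, 91.9 and 148 CPM (log2 fold change 2.37 ± 0.23 (SE), adjusted p = 0.000124). All libraries of both ligands lay above Con, and the TGFb libraries were the most spread. Slc16a3 also rose with bFGF, to 48.8 ± 16.8 CPM, and with TNFa it read 34.4 ± 11.9 CPM (log2 0.75, adjusted p = 0.0732, and log2 0.72, adjusted p = 1.52e-05, with the block).

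Slc16a1 held 16.6, 23, 15.5 and 11.4 CPM in the LacZ Con libraries and 188, 165, 172 and 197 CPM with IL-1b (log2 fold change 3.46 ± 0.18 (SE), adjusted p = 3.23e-06). The 4 IL-1b libraries formed a narrow band far above every other library of the study. TGFb raised Slc16a1 to 30.5 ± 6.46 CPM, while bFGF (21.2 ± 8.4 CPM, log2 0.37, adjusted p = 0.437, with the block adjusted p = 0.019) and TNFa (14.2 ± 3.3 CPM, log2 -0.23, adjusted p = 0.505) did not pass without the block. Per length, Slc16a3 made up 87.1% ± 4.17 of both carriers with TGFb and 36.9% ± 4.37 with IL-1b, from 55.4% ± 11.6 in Con. Pdk1, the kinase that shuts pyruvate dehydrogenase, rose from 31 ± 1.0 CPM to 94.6 ± 14.3 with IL-1b, 86.2 ± 47.5 with TGFb, 52 ± 8.15 with bFGF and 52 ± 4.7 with TNFa.

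**Figure D3:**
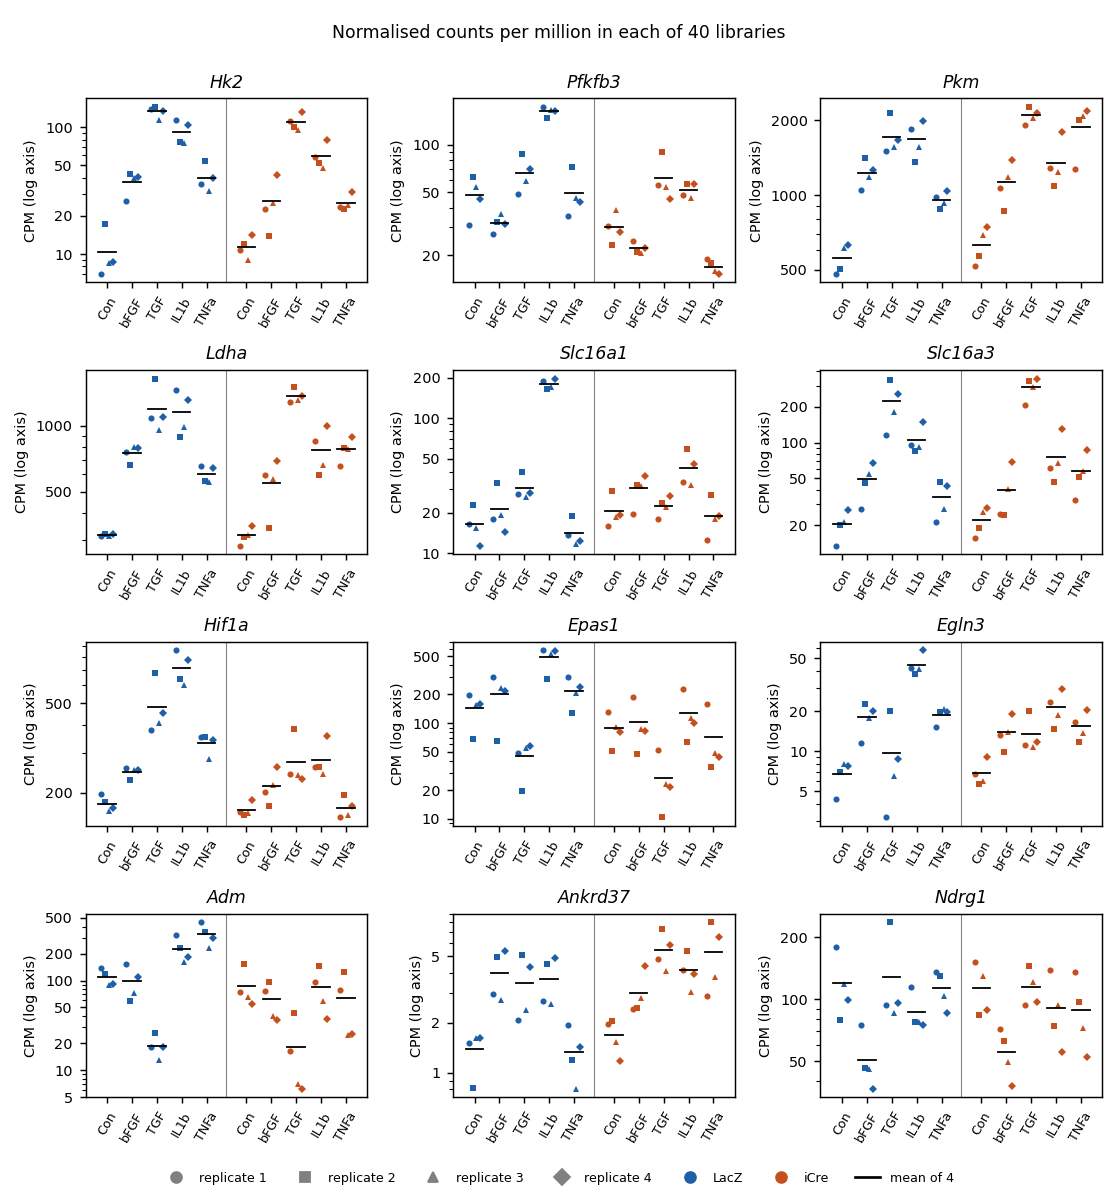
Normalised CPM on a log axis (vertical) for 12 of the genes in the 40 libraries, grouped by treatment within LacZ (blue) and iCre (orange) on the horizontal axis, with a symbol for each replicate number and a bar at the mean of 4. The 4 LacZ libraries with IL-1b lie between 165 and 197 CPM for Slc16a1, where the 4 iCre libraries with IL-1b lie between 32.1 and 59.3 CPM.

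The transcripts of the HIF alpha subunits changed in opposite directions with TGFb. Hif1a rose with every ligand, from 178 ± 14 CPM to 719 ± 119 with IL-1b, 480.1 ± 136 with TGFb, 333 ± 33.8 with TNFa and 247 ± 13.3 with bFGF. Epas1 rose with IL-1b, from 144 ± 53.3 to 488 ± 135 CPM (log2 fold change 1.77 ± 0.32 (SE), adjusted p = 0.00352), and fell with TGFb to 45.1 ± 17.2 CPM (log2 fold change -1.66 ± 0.37 (SE), adjusted p = 0.00506). Its second replicate was the lowest library in each LacZ group, at 68.7 CPM in Con and 19.8 CPM with TGFb. With bFGF and TNFa, Epas1 missed the threshold without the block and passed with it (log2 0.42 and 0.62). Per length, Epas1 made up 39.8% ± 10.3 of both subunits in Con and 8.1% ± 3.78 with TGFb.

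Of the 2 prolyl hydroxylase genes among the 33, which mark HIF for destruction, Egln1 rose with all 4 ligands and Egln3 with all but TGFb. Egln3, itself a known HIF target, held 4.4, 7.0, 7.95 and 7.79 CPM in LacZ Con, 42.5, 38.2, 41.6 and 57.7 CPM with IL-1b (log2 fold change 2.74 ± 0.20 (SE), adjusted p = 1.88e-05) and 15.2, 19.9, 20.6 and 19.8 CPM with TNFa (log2 fold change 1.48 ± 0.19 (SE), adjusted p = 0.000529). With bFGF its libraries held 11.5, 22.5, 17.9 and 20.1 CPM (log2 fold change 1.43 ± 0.24 (SE), adjusted p = 0.00595). None of these 3 ligand groups overlapped with Con, and the bFGF call missed the threshold without replicate 3 or 4 (adjusted p = 0.058 and 0.0565). With TGFb the libraries held 3.17, 20.2, 6.52 and 8.71 CPM and overlapped with Con (adjusted p = 0.406). Egln1, the main hydroxylase in most cells, rose from 57.8 ± 5.48 CPM to 136 ± 33.4 with TGFb, 115 ± 24.7 with IL-1b, 88.5 ± 21.5 with bFGF and 77.2 ± 10.1 with TNFa.

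The other hypoxia targets did not move as one. Bnip3 (a receptor for the removal of mitochondria) and Higd1a (a protein of the inner mitochondrial membrane) rose with all 4 ligands, Bnip3 from 39.8 ± 1.37 to 117 ± 77.2 CPM with TGFb and 114 ± 22 CPM with IL-1b, and Higd1a from 18.5 ± 1.55 to 63.6 ± 22.8 and 45.9 ± 13.8 CPM. Ankrd37 rose with bFGF, from 1.52, 0.812, 1.61 and 1.63 to 2.97, 4.93, 2.73 and 5.35 CPM (log2 fold change 1.54 ± 0.32 (SE), adjusted p = 0.0141), and also with IL-1b and TGFb. The Ankrd37 groups with bFGF and Con did not overlap, a condition for giving its library values, but its counts were low, from 29 reads in the library with the fewest. Ndrg1, a stress-induced gene, fell with bFGF from 119 ± 43.7 to 50.9 ± 16.5 CPM (log2 fold change -1.21 ± 0.28 (SE), adjusted p = 0.0209) and with IL-1b it missed the threshold without the block and passed with it (log2 -0.41, adjusted p = 0.000349). The bFGF calls of Ankrd37 and Ndrg1 missed the threshold without replicate 3 (adjusted p = 0.0657 and 0.148) and without replicate 4 (0.0966 and 0.11).

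Adm, which encodes the vasodilator adrenomedullin, showed opposite changes between ligands. Its LacZ libraries held 137, 119.8, 89.4 and 91.6 CPM in Con and 452, 352, 231 and 300.5 CPM with TNFa (log2 fold change 1.61 ± 0.21 (SE), adjusted p = 0.000683). With TGFb they held 17.9, 25.8, 13 and 18 CPM (log2 fold change -2.53 ± 0.21 (SE), adjusted p = 1.24e-05). The lowest TNFa library lay above the highest Con library, and the highest TGFb library lay below the lowest. IL-1b also raised Adm, to 224 ± 72.4 CPM, and bFGF gave 98.6 ± 41.6 CPM, a log2 difference of -0.13 (adjusted p = 0.812).

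In iCre fibroblasts 5 of the 6 genes of lower glycolysis rose with each of TGFb, IL-1b and TNFa, and of the 11 genes of upper glycolysis 9, 6 and 6 rose. TGFb raised 24 members and lowered 4, beside 18.6% and 18.8% of all genes (37.4% in either direction). IL-1b raised 22 and lowered none, beside 9.38% and 6.88% (16.3%), with none lower at an unadjusted p under 0.05 or by DESeq2. With the block 25 rose and 2 fell, beside 18.1% and 15.6% (33.8% in either direction), and with the block and the GC correction 24 rose and 4 fell (Eno2, Ldhb, Ndrg1 and Pfkm), beside 15.2% and 14.2% (29.4% in either direction). TNFa raised 18 and lowered 1, beside 14.7% and 12.3% (27%). With the block 18 rose and 4 fell, beside 18.9% and 17.3% (36.1% in either direction), and with the GC correction as well 20 rose and 7 fell, beside 17.4% and 16.3% (33.8% in either direction). Those that fell then were Pfkfb3, Adm, Aldoc, Epas1, Ldhb, Ndrg1 and Pfkm. For TGFb the block gave 25 and 4, beside 20.4% and 21.1% (41.5% in either direction), and the fit with the block and the GC correction gave 24 and 5, beside 20.1% and 20.8% (40.9% in either direction), with Hk1 lost against the fit without either and Slc16a1 (rising) and Pfkm (falling) gained. With bFGF 2 rose, Egln3 and Pkm, beside 1.79% (2.42% in either direction), and with the replicate block 18 rose and 4 fell, beside 9.28% and 7.41% of all genes (16.7% in either direction). None fell beside 0.635% of all genes without the block, with 2 lower at an unadjusted p under 0.05 and 1 by DESeq2. The bFGF count without each replicate in turn ran from 0 to 18, the 18 without replicate 2. The medians of log2 fold change over the 33 genes were 1.23 (TGFb), 0.76 (IL-1b), 0.48 (TNFa) and 0.33 (bFGF), with medians over all genes of -0.11, 0.00, -0.04 and 0.00. In iCre the summed fibroblast markers lay at 20650 to 36440 CPM in Con and 45390 to 59920 with TGFb. The cardiomyocyte sum lay at 6.43 to 43.6 CPM in Con, 3.11 to 12.7 with TGFb, 1.93 to 15.8 with IL-1b and 0.476 to 19.7 with TNFa. Their part in these results was not tested.

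The summed level of the 17 glycolytic genes was 0.336% ± 0.0369 of normalised counts in iCre Con, 0.468% ± 0.0758 with bFGF, 0.625% ± 0.106 with IL-1b, 0.688% ± 0.105 with TNFa and 0.981% ± 0.105 with TGFb. Slc16a3 libraries held 15.7, 18.9, 26 and 28.2 CPM in Con and 206, 333, 292 and 348 CPM with TGFb, and Hk2 10.7, 11.9, 8.99 and 14.2 and 113, 101, 94.7 and 132 CPM. Neither gene overlapped between these groups. Higd1a rose with TGFb from 13.1 ± 1.42 to 72.6 ± 14 CPM (log2 fold change 2.49 ± 0.14 (SE), adjusted p = 1.15e-06). Eno2, Ldhb, Epas1 and Adm fell with TGFb here too, at log2 values of -1.01, -1.58, -1.69 and -2.24. The Epas1 call missed the threshold without replicate 3 or 4 (adjusted p = 0.0661 and 0.0568) and the Adm call without replicate 1 (adjusted p = 0.053). Aldoc passed at 2.81, with libraries of 2.55, 39.6, 6.44 and 6.2 CPM, and without replicate 2 its value was 1.54.

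iCre and LacZ fibroblasts were then compared within each treatment. These groups differ in TAK1, in the expression of Cre and, with TGFb, IL-1b or TNFa, in the GC trend. A difference between them therefore cannot be assigned to TAK1 alone. Marker sums shifted with the virus in some treatments, with overlapping ranges for the mural and leukocyte markers. The 9 fibroblast markers summed to 36390 to 69040 CPM in LacZ and 22780 to 35310 CPM in iCre with IL-1b, and to 25470 to 34020 and 15260 to 23080 CPM with TNFa. The 2 mural markers summed to 83.1 to 534 and 254 to 858 CPM in Con and to 61.1 to 355 and 271 to 1072 CPM with TNFa, the 4 leukocyte markers to 45.9 to 138.5 and 22.1 to 76 CPM in Con, and the 3 cardiomyocyte markers to 0.326 to 1.67 and 1.93 to 15.8 CPM with IL-1b. Their part in the results was not tested. In Con no member passed by edgeR, beside 0.0754% of all genes (0.0278% higher, 0.0476% lower), 7 members had an unadjusted p under 0.05, 5 members passed by DESeq2, and 19 genes passed in all by edgeR. With bFGF no gene passed by edgeR (0%), 2585 genes and 5 members had an unadjusted p under 0.05, and 481 genes and 1 member passed by DESeq2. With the replicate block 7 members were higher and 4 lower in iCre in Con (beside 6.79% and 7.7% of all genes, 14.5% in either direction), and 2 higher and 13 lower with bFGF (beside 6.64% and 7.22%, 13.9% in either direction). Under the block with bFGF, the log2 difference of iCre from LacZ was -0.98 (adjusted p = 4.03e-06) for Epas1 and -0.79 (adjusted p = 5.18e-06) for Higd1a. In Con the log2 differences under the block were Epas1 -0.70 (adjusted p = 1.88e-05), Pfkfb3 -0.67 (adjusted p = 0.00408) and Slc2a1 0.55 (adjusted p = 1.87e-05).

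With TGFb the glycolytic genes did not pass between iCre and LacZ, and Hif1a was the 1 member called, as lower, beside 5.87% of all genes lower and 2.51% higher (8.37% in either direction). At an unadjusted p under 0.05, 2 members were higher and 3 lower. Hif1a libraries held 380.3, 679, 409 and 453 CPM with LacZ and 241, 384, 239 and 229.9 CPM with iCre (log2 fold change -0.84 ± 0.21 (SE), adjusted p = 0.0386). The second replicate was the highest of each group, and in it iCre reached the LacZ range. Without replicate 1, 3 or 4 the call missed the threshold (adjusted p = 0.0969, 0.188 and 0.209). With the GC correction and no block no member passed, Hif1a included. With the block 14 members were higher in iCre and 4 lower, beside 9.67% and 11.1% of all genes (20.8% in either direction). With the block and the GC correction 2 were higher and 4 lower, beside 2.79% and 5.14% (7.93%), with Hif1a at a log2 difference of -0.38 (adjusted p = 0.00288). Transcripts of Hif1a hold 41.3% GC, the lowest of the 33 genes, next to Bnip3 (41.6%), Slc16a1 (42.9%) and Pdk1 (46.4%).

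With IL-1b the iCre fibroblasts had lower levels of Slc16a1, of the HIF subunits and Egln3, and of Pfkfb3, Hk2, Pdk1, Bnip3 and Adm. In all 9 members were lower and 1 (Pfkp) higher, beside 8.98% and 7.14% of all genes (16.1% in either direction). With the block 19 were lower and 4 higher, beside 14.9% and 14.6% of all genes (29.5% in either direction). Without replicate 3 the count was 5. Of the 33 estimates 24 lay below 0 (29 with the block and the GC correction), and their median was -0.36, where the median over all genes was 0.04.

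Slc16a1 held 188, 165, 172 and 197 CPM in the LacZ libraries with IL-1b and 33.6, 59.3, 32.1 and 46 CPM in the iCre libraries (log2 fold change -2.10 ± 0.18 (SE), adjusted p = 9.02e-05, GC-corrected with the block -1.83). Pfkfb3 held 175, 148, 167 and 164 CPM in the LacZ and 48.4, 56.3, 46.4 and 56.6 CPM in the iCre libraries (log2 fold change -1.67 ± 0.10 (SE), adjusted p = 1.9e-05). Both genes had every LacZ library above every iCre library by a wide margin. Epas1 held 578, 287, 525 and 561 CPM with LacZ and 230.0, 63.4, 113 and 100.2 CPM with iCre (log2 fold change -1.96 ± 0.37 (SE), adjusted p = 0.00541). The lowest LacZ library and the highest iCre library of Epas1 lay close to each other, without overlap, and without replicate 3 the adjusted p was 0.0577.

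Hif1a stood at 719 ± 119 CPM in LacZ and 279 ± 51.4 in iCre with IL-1b (log2 fold change -1.38 ± 0.16 (SE), adjusted p = 0.00043), and the GC-corrected value with the block was -0.94. Bnip3 stood at 114 ± 22 and 53.4 ± 10.8 CPM (log2 fold change -1.11 ± 0.17 (SE), adjusted p = 0.00173), with a GC-corrected value of -0.69. Egln3 went from 45 ± 8.66 in LacZ to 21.5 ± 6.26 CPM in iCre, Pdk1 from 94.6 ± 14.3 to 54.8 ± 10.6, Adm from 224 ± 72.4 to 84.8 ± 48.4 and Hk2 from 92.3 ± 19.6 to 59.4 ± 14 CPM. The Adm and Hk2 calls missed the threshold without replicate 1 or 3 (adjusted p = 0.112 and 0.107 for Adm, 0.182 and 0.104 for Hk2), the Adm call also without replicate 4 (0.0599), and the Egln3 call without replicate 3 (0.053). Pfkp was higher in iCre, at 53.1 ± 6.64 against 35.4 ± 4.89 CPM (log2 fold change 0.57 ± 0.13 (SE), adjusted p = 0.0118), a call that missed the threshold without replicate 1 or 3 (adjusted p = 0.0576 and 0.114).

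The glycolytic enzymes themselves mostly missed the threshold under IL-1b. Ldha stood at 1158 ± 270.3 CPM in LacZ and 775 ± 181 in iCre (log2 -0.60, adjusted p = 0.0852, with the block adjusted p = 2.1e-05), Pfkl at 285 ± 51.7 and 199 ± 45.5 (log2 -0.53, adjusted p = 0.0837, with the block adjusted p = 3.5e-05), and Gapdh at 738 ± 86.5 and 673 ± 106 (log2 -0.15, adjusted p = 0.534). With the GC correction and the block, 25 members were lower and 3 higher, beside 11.9% and 9.82% of all genes (21.7%), among the lower Eno1 at a log2 difference of -0.43, Pkm at -0.62 and Gapdh at -0.41. Whether the GC trend of these libraries or TAK1 sets the level of the GC-rich enzyme genes cannot be told apart.

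With TNFa members passed in both directions. Enzymes and the carrier Slc2a1 were higher in iCre, while Hk2, Pfkfb3, Pdk1, Hif1a, Epas1 and Adm were lower. Of 33 members 12 were higher and 6 lower, beside 14.8% and 12.6% of all genes (27.3% in either direction), and without replicate 3 the count was 8. With the block 17 were higher and 8 lower, beside 17.1% and 15.1% (32.2% in either direction). The higher members without the block were Ankrd37, Pkm, Slc2a1, Gapdh, Aldoa, Tpi1, Pgam1, Pfkm, Eno1, Gpi1, Pfkfb4 and Ldha.

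Adm held 452, 352, 231 and 300.5 CPM with TNFa in the LacZ libraries and 77.7, 125, 24.9 and 25 CPM in the iCre ones (log2 fold change -2.38 ± 0.51 (SE), adjusted p = 0.00667). Ankrd37 held 1.93, 1.19, 0.801 and 1.44 CPM with LacZ and 2.9, 8.04, 3.76 and 6.55 CPM with iCre (log2 fold change 2.0 ± 0.38 (SE), adjusted p = 0.00365). Pfkfb3 held 35.6, 72.1, 46.1 and 43.6 CPM with LacZ and 18.9, 17.7, 15.7 and 15.2 CPM with iCre (log2 fold change -1.53 ± 0.20 (SE), adjusted p = 0.000575). None of the 3 overlapped between LacZ and iCre, which was a condition for giving their library values. Replicates 3 and 4 gave the lowest Adm values in iCre. Pkm stood at 958 ± 68.2 CPM without Cre (LacZ) and 1882 ± 413 with it (log2 0.99 ± 0.17), Slc2a1 at 77 ± 12.6 and 149 ± 43.8, and Gapdh at 486 ± 24.6 and 791 ± 146 CPM. Hif1a was lower, at 171 ± 18.3 against 333 ± 33.8 CPM (log2 -0.94 ± 0.11). Epas1 stood at 71.6 ± 57.8 against 217 ± 72.2 CPM, Pdk1 at 33.3 ± 5.77 against 52 ± 4.7 and Hk2 at 25.5 ± 3.8 against 40.1 ± 9.67. The first iCre replicate was the highest for Epas1, at 158 CPM, and without replicate 3 or 4 the call missed the threshold (adjusted p = 0.152 and 0.16).

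The GC content of the transcripts runs with the direction of many of these calls, since Pkm holds 57.7% and Eno1 57.4%. With the block and the GC correction, 10 members were higher and 9 lower in iCre with TNFa, beside 14.4% and 13.2% of all genes (27.6% in either direction). On the log2 scale Pkm then stood at 0.69 (adjusted p = 0.00635), Slc2a1 at 0.72 (adjusted p = 0.00291), Gapdh at 0.44 (adjusted p = 0.0196) and Hif1a at -0.49 (adjusted p = 0.00555). Gpi1 (log2 0.22, adjusted p = 0.126), Eno1 (log2 0.20, adjusted p = 0.194), Ldha (log2 0.25, adjusted p = 0.128) and Pfkfb4 (log2 0.19, adjusted p = 0.295) no longer passed.

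**Figure D4:**
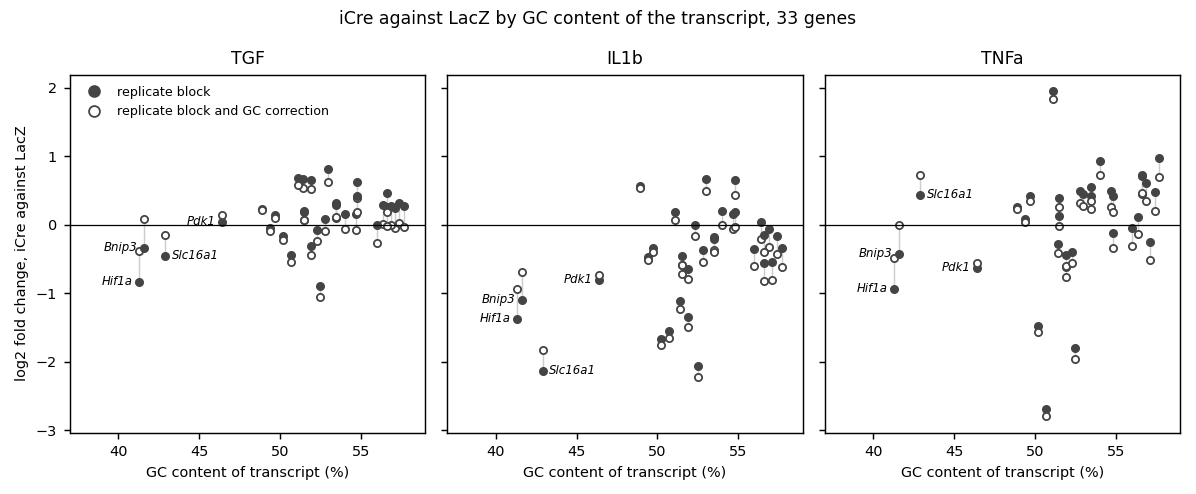
Log2 fold change of iCre against LacZ (vertical axis) by the GC content of the transcript in percent (horizontal axis) for the 33 genes under TGFb, IL-1b and TNFa, from the fit with the replicate block (filled) and with the GC correction added (open). The correction moves Hif1a, Bnip3 and Slc16a1, at 41.3% to 42.9% GC, up and Pkm, at 57.7% GC, down.

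Whether the response to a ligand itself differed between LacZ and iCre was tested as an interaction over 16 libraries. For IL-1b, 5 called interactions were below 0 and none above (1 at an unadjusted p under 0.05, none by DESeq2), beside 4.95% and 2.76% of all genes (7.71% in either direction), and 26 of the 33 estimates were below 0 (30 with the block and the GC correction). These were Slc16a1 (log2 -2.40 ± 0.31, adjusted p = 0.000159), Hif1a (log2 -1.28, adjusted p = 0.000397), Bnip3 (log2 -1.04, adjusted p = 0.00376), Pdk1 (log2 -1.03, adjusted p = 0.00361) and Pfkfb3 (log2 -0.98, adjusted p = 0.0242). All 5 rose less in iCre than in LacZ by their estimates. Slc16a1 rose 11-fold with IL-1b in LacZ and 2.09-fold in iCre. Egln3 lay just outside the threshold at a log2 value of -1.08 (adjusted p = 0.0501). With the block 15 were below 0 and 3 above (Pfkp, Eno2 and Ldhb, which fell with IL-1b in LacZ under the block), beside 8.98% and 7.9% of all genes (16.9%), and with the GC correction as well 21 and 2, beside 6.28% and 5.06% (11.3%), among them Slc16a1 at -2.19, Hif1a at -0.89 and Bnip3 at -0.68. The Pfkfb3 call missed the threshold without replicate 1, 3 or 4, with log2 values of -0.71, -0.83 and -1.03.

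**Figure D5:**
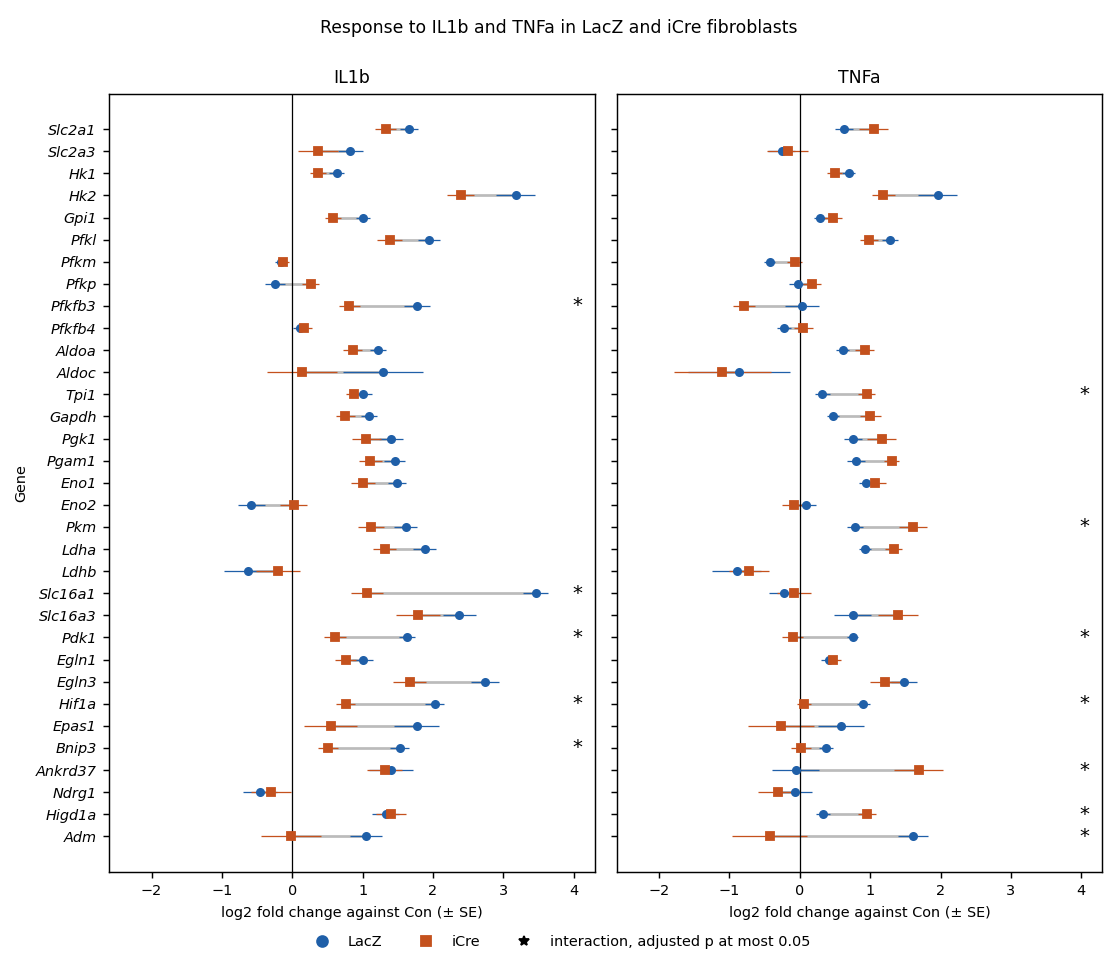
Log2 fold change against Con ± SE (horizontal axis) of each of the 33 genes (vertical axis) in LacZ (circles) and iCre (squares) for IL-1b and TNFa, with a star where the interaction has an adjusted p of at most 0.05. With IL-1b 26 of the 33 genes have the iCre square to the left of the LacZ circle by the interaction estimate, and with TNFa 13.

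For TNFa, 4 called interactions were above 0 and 3 below, beside 8.38% and 7.7% of all genes (16.1% in either direction). Ankrd37 (log2 1.74, adjusted p = 0.0242), Pkm (log2 0.82, adjusted p = 0.0238), Tpi1 (log2 0.62, adjusted p = 0.0161) and Higd1a (log2 0.62, adjusted p = 0.013) had larger changes in iCre. Adm (log2 -2.06, adjusted p = 0.0367), Pdk1 (log2 -0.86, adjusted p = 0.00298) and Hif1a (log2 -0.85, adjusted p = 0.000592) rose with TNFa in LacZ and did not pass in iCre, where the block gave Adm -0.65 (adjusted p = 0.0346) and the block with the GC correction Hif1a 0.42 (adjusted p = 0.0028), both on the log2 scale. In iCre the 3 stood at 87 ± 45.4, 36.5 ± 5.73 and 168 ± 12.2 CPM in Con and at 63.1 ± 48, 33.3 ± 5.77 and 171 ± 18.3 CPM with TNFa. With the block 10 interactions were above 0 and 7 below, beside 13.2% and 11.9% of all genes (25.1%), and with the GC correction as well 4 and 8, beside 10.5% and 10.2% (20.7%), where the interaction of Hif1a shrank to -0.46, of Pkm to 0.56 and of Tpi1 to 0.42. Without replicate 3 or without replicate 4 the count was 2, with Pdk1 and Hif1a as the 2 that passed both times.

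The TGFb and bFGF responses gave no member that differed between LacZ and iCre by edgeR, beside 4.51% of all genes for TGFb (0.893% higher, 3.62% lower) and 0% for bFGF. At an unadjusted p under 0.05 there were 3 members for TGFb and 2 members and 765 genes in all for bFGF. By the block 2 interactions passed for TGFb, Slc16a1 and Hif1a, both below 0, beside 5.68% of all genes below and 2.36% above (8.04%), and 1 by DESeq2. With the GC correction and the block none passed (Slc16a1 -0.47, adjusted p = 0.286, Hif1a -0.34, adjusted p = 0.478), beside 1.25% of all genes below 0 and 0.721% above (1.97%), where 5 members had an unadjusted p under 0.05. For bFGF neither the block nor DESeq2 gave a member, beside 0% above and 0% below (0%) with the block. The TGFb interaction of Slc16a3 was 0.27 ± 0.40 and of Hk2 -0.45 ± 0.31 (SE). For bFGF, 25 of the 33 estimates lay below 0, with a median of -0.28, where the median over all genes was 0.03.

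Related genes outside the 33 were taken as 4 lists, to be read against the shares of all genes given above for each comparison and fit. Of 21 measured other isoforms of sugar uptake and glycolysis, 6 and 9 (rising and falling) passed with TGFb in LacZ, 5 and 5 with IL-1b, 3 and 6 with TNFa and 1 and 1 with bFGF, with medians of -0.13, -0.08, -0.31 and -0.27. With the replicate block the numbers were 7 and 9, 6 and 7, 4 and 11 and 2 and 6 in the same order. Its largest change was in Slc2a6, a hexose carrier of the lysosome, which rose with TNFa in LacZ from 1.38 ± 0.677 to 101 ± 12.2 CPM (log2 6.22). With TNFa Slc2a6 stood lower in iCre, from 101 ± 12.2 to 6.29 ± 4.16 CPM, and its interaction was -3.45 (adjusted p = 0.00267). Pgam2, the muscle mutase, fell with bFGF, IL-1b, TNFa and TGFb in LacZ, from 1.49 CPM in Con to at most 0.296 CPM.

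Of 18 genes of pyruvate entry and the pentose phosphate pathway, 10 and 4 rose and fell with TGFb in LacZ, 7 and 3 with IL-1b, 5 and 3 with TNFa and 2 and 2 with bFGF, with medians of 0.39, 0.24, 0.10 and 0.15. Under the block they were 11 and 4, 10 and 4, 8 and 4 and 6 and 4. Pdk4, the pyruvate dehydrogenase kinase of fasting, fell with all 4 ligands in LacZ, for IL-1b from 32.5 ± 5.92 to 12.8 ± 4.18 CPM, where Pdk1 rose. Pdk4 was higher in iCre than in LacZ with IL-1b (1.35) and TNFa (1.19). Pgd, of the oxidative pentose phosphate branch, rose with IL-1b from 137 ± 13.8 to 411 ± 79.1 CPM, with an interaction of -1.09 (adjusted p = 0.00173).

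Of 10 HIF partners and regulators, 2 and 2 rose and fell with TGFb in LacZ, 2 and 0 with IL-1b, 3 and 1 with TNFa and none with bFGF without the block, with medians of 0.06, 0.16, 0.04 and -0.06. The block gave 2 and 3, 4 and 1, 4 and 2 and 1 and 2. Siah2, a ubiquitin ligase that targets prolyl hydroxylases, rose with TGFb from 7.21 ± 0.532 to 33.5 ± 6.64 CPM. Of 25 other hypoxia-induced genes, 12 and 4 rose and fell with TGFb, 15 and 2 with IL-1b, 8 and 5 with TNFa and 10 and 3 with bFGF, with medians of 0.93, 1.02, 0.28 and 0.34. For these the block gave 16 and 4, 17 and 3, 12 and 8 and 12 and 4. Vegfa, the endothelial growth factor, rose with TGFb from 80.8 ± 11.4 to 545 ± 108 CPM, and Angptl4, a lipase inhibitor, fell from 169 ± 52.9 to 18.7 ± 4.69 CPM. Gbe1, the glycogen branching enzyme, rose with IL-1b from 12.5 ± 1.08 to 61.7 ± 10.1 CPM, with an interaction of -1.72 (adjusted p = 6.06e-05).

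In the order of the lists above, the numbers higher and lower in iCre were 1 and 2, 2 and 5, 0 and 1 and 0 and 9 with IL-1b, and 4 and 4, 7 and 4, 1 and 2 and 8 and 6 with TNFa. With TGFb they were 1 and 1, 1 and 2, 1 and 0 and 0 and 5. In Con 1 gene of the 4 lists passed, Loxl2, a collagen cross-linking enzyme, which stood lower in iCre, from 272 ± 35.4 to 140.1 ± 18.4 CPM, and with bFGF none passed, both without the block. Among the other hypoxia-induced genes, none was higher in iCre with IL-1b and 9 were lower, with Car12, Loxl2 and P4ha2 at log2 values of -2.07, -1.93 and -1.47. With the replicate block the numbers higher and lower, in the same order of lists, were 1 and 4, 5 and 2, 2 and 0 and 5 and 6 in Con and 1 and 4, 2 and 2, 3 and 0 and 3 and 12 with bFGF. They were 2 and 2, 2 and 3, 1 and 2 and 5 and 8 with TGFb, 1 and 5, 4 and 7, 1 and 2 and 2 and 17 with IL-1b and 6 and 5, 7 and 4, 1 and 3 and 11 and 10 with TNFa. With the block and the GC correction they were 1 and 2, 0 and 1, 0 and 1 and 2 and 8 with TGFb, 1 and 5, 3 and 5, 0 and 3 and 0 and 16 with IL-1b and 4 and 4, 5 and 2, 0 and 4 and 7 and 9 with TNFa.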

How the data were processed

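RNA of 40 libraries of cultured fibroblasts was sequenced. Per the labels the kit was NEBNext Ultra II, while the study's methods name TruSeq Stranded mRNA. Per the submitters' processing notes FastQC was version 0.10.1, and the study's methods name another version. The authors checked reads with it, aligned them with STAR and deposited raw counts per gene from HTSeq 0.10.0. The strand setting and annotation release are not given in the sources used here. Of 55414 identifiers, those with at least 10 counts summed over 40 libraries (25210) were tested. Comparisons used edgeR 4.0.16 (TMM, quasi-likelihood, R 4.3.3) on the 8 libraries compared, or 16 for interactions, with Benjamini-Hochberg adjustment over all genes tested. Totals per library ran from 25360947 to 66160732 counts. The fits were tested on simulated data first. Same-numbered libraries deviated together from their group means in all 52 pairs (correlations 0.335 to 0.863 over 11849 genes), so the replicate numbers pair libraries, and counts of called members are also given with the number as a block. DESeq2 1.42.0, RLE, 2 other count filters, a GC correction with GENCODE M21 transcripts (GRCm38), and leaving out each replicate were alternatives. Fits that left out a replicate had no block. For each ligand in LacZ and each treatment between iCre and LacZ, library values are given for the called members without overlap that have the largest change (at most 3). For those members the lack of overlap was a condition of the choice. Other members are named by role, some with their library values. Members and gene lists were chosen with earlier results of these data known. Figures were drawn with matplotlib 3.10.9.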

Additional observations from a re-analysis of the deposited data

Results flagged for a closer look

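In 33 of the 330 sets of 4 libraries (33 genes in 10 groups), 1 library lay far from the other 3 by Dixon's criterion at 95%, where chance gives about 1 in 20. Of these, 24 were replicate 2, 7 were replicate 1, and replicates 3 and 4 gave 1 each. In LacZ Con, Hk2 replicate 2 stood at 17.3 CPM (the others 6.99 to 8.63), Pfkp replicate 2 stood at 32.6 CPM (the others 44.5 to 46.6), Gapdh replicate 1 stood at 310.0 CPM (the others 361 to 364) and Ankrd37 replicate 2 stood at 0.812 CPM (the others 1.52 to 1.63). In LacZ with bFGF, Egln1 replicate 2 stood at 56.5 CPM (the others 96.5 to 102) and Higd1a replicate 2 stood at 22.4 CPM (the others 37.3 to 38). In LacZ with TGFb, Gpi1 replicate 2 stood at 706 CPM (the others 348 to 386), Aldoc replicate 2 stood at 32.7 CPM (the others 1.57 to 4.28), Slc16a1 replicate 2 stood at 40.1 CPM (the others 26.1 to 28.2), Ndrg1 replicate 2 stood at 238 CPM (the others 85.8 to 96.4) and Higd1a replicate 2 stood at 97.6 CPM (the others 49 to 55.9). In LacZ with IL-1b, Eno2 replicate 2 stood at 32.1 CPM (the others 18 to 20.3), Slc16a3 replicate 4 stood at 148 CPM (the others 85.1 to 95.8) and Ndrg1 replicate 1 stood at 115 CPM (the others 74.8 to 78.1). In LacZ with TNFa, Aldoc replicate 2 stood at 3.36 CPM (the others 0.417 to 0.691), Eno2 replicate 2 stood at 45.4 CPM (the others 31.1 to 33.2), Egln3 replicate 1 stood at 15.2 CPM (the others 19.8 to 20.6) and Hif1a replicate 3 stood at 283 CPM (the others 342 to 354). In iCre Con, Slc2a3 replicate 2 stood at 5.36 CPM (the others 2.89 to 3.19), Aldoc replicate 1 stood at 0.524 CPM (the others 2.29 to 2.63) and Gapdh replicate 1 stood at 341 CPM (the others 420.0 to 433). In iCre with TGFb, Gpi1 replicate 2 stood at 855 CPM (the others 456 to 498), Pfkfb4 replicate 2 stood at 11.5 CPM (the others 16.7 to 17.3), Aldoc replicate 2 stood at 39.6 CPM (the others 2.55 to 6.44), Tpi1 replicate 2 stood at 628 CPM (the others 485 to 505), Eno1 replicate 2 stood at 1560.0 CPM (the others 1080.0 to 1150.0), Pdk1 replicate 2 stood at 127 CPM (the others 67.3 to 74), Bnip3 replicate 2 stood at 128 CPM (the others 67.4 to 72.8), Egln3 replicate 2 stood at 19.9 CPM (the others 10.7 to 11.8) and Hif1a replicate 2 stood at 384 CPM (the others 230.0 to 241). In iCre with TNFa, Gpi1 replicate 1 stood at 405 CPM (the others 518 to 541), Pfkp replicate 2 stood at 40.4 CPM (the others 51.3 to 53.2) and Epas1 replicate 1 stood at 158 CPM (the others 34.9 to 49.4).

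The ligand response differed between LacZ and iCre by the interaction test, at an adjusted p of at most 0.05 with edgeR, for 12 pairs of gene and ligand. For IL-1b the log2 differences of response (iCre minus LacZ) were Pfkfb3 -0.975, Slc16a1 -2.4, Pdk1 -1.03, Bnip3 -1.04, Hif1a -1.28. For TNFa they were Tpi1 0.621, Pkm 0.817, Pdk1 -0.861, Ankrd37 1.74, Higd1a 0.621, Hif1a -0.85, Adm -2.06. The iCre libraries with IL-1b or TNFa also had the GC trend described above. With the GC correction and the block all 12 passed, at -1.08, -2.19, -0.99, -0.68 and -0.89 for IL-1b and 0.42, 0.56, -0.82, 1.62, 0.48, -0.46 and -2.30 for TNFa in the same order. With the GC correction and no block, 6 members passed for IL-1b and 5 for TNFa, against 5 and 7 without either.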

How the results depend on the processing

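Of 205 calls of a member in the comparisons, DESeq2 kept 205, the replicate block 205, RLE normalisation 200, no count filter 203, filterByExpr 204, the GC correction 185 and the GC correction with the block 200, and none reversed. Without replicate 1, 2, 3 or 4, in fits without the block, the numbers kept were 185, 199, 156 and 160. The fit without replicate 1 was also the one within the libraries numbered from 51. The replicate block removed no call of a member. It added calls, and its counts by direction stand beside the results where they moved by over 1.5 times. For the related lists blocked counts stand beside the others for the ligands in LacZ and for iCre against LacZ. Numbers of members called were as follows, and the cause of each move was not tested. For bFGF in LacZ, 6 to 25 with each replicate left out, against 21. For bFGF in iCre (2), 10 by DESeq2, 1 by RLE, 22 with the block, 21 with the block and GC correction, and 0 to 18 with a replicate left out. For iCre against LacZ in Con (0), 5 by DESeq2, 11 with the block, 11 with the block and GC correction, and 0 to 3. In bFGF (0), 1 by DESeq2, 15 with the block, 15 with the block and GC correction, and 0 to 2. In TGFb (1), 4 by DESeq2, 2 by filterByExpr, 18 with the block, 0 with the GC correction, 6 with both, and 0 to 7. In IL-1b (10), 23 with the block, 28 with the block and GC correction, and 5 to 13. In TNFa (18), 8 to 18. For the interaction with TGFb (0), 1 by DESeq2, 2 with the block, and 0 to 2. With IL-1b (5), 18 with the block, 23 with the block and GC correction, and 4 to 8. With TNFa (7), 17 with the block, 12 with the block and GC correction, and 2 to 10. Of 561 estimates of the members over all comparisons, 38 changed sign with the GC correction and block, 34 with the GC correction, 0 to 8 under the other settings with all libraries and 15 to 40 with a replicate left out, none of them called in the fit reported. Those that changed sign and passed the threshold on the new side were Ndrg1 with TGFb in LacZ without replicate 2 (-0.521, where the fits leaving out a replicate ran from -0.521 to 0.514), Eno2 with IL-1b in iCre with the GC correction and block (-0.198) and Hk1 in iCre against LacZ with IL-1b with the same correction (-0.212).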
